A study of Pyrus pyrifolia with 6 samples.

Results

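Subtilases, other proteases and peptidases, and their inhibitors were described in the pulp of Akibae pear (Pyrus pyrifolia) after a boron application. The members are the 90 genes, of 4291 listed with a value for each library, whose description names a subtilase, protease, proteinase, peptidase, cathepsin, vacuolar-processing enzyme, cystatin or trypsin inhibitor and does not mention ubiquitin. The authors' deposited table lists only genes that they had called on these 6 libraries, so every member had to differ, and members of these families that were not called are not described here. There were 6 mRNA libraries of orchard fruit of 1 cultivar. Fruit of the boron group had received a boron application, and fruit of the control group, labelled CK, a control treatment, with 3 libraries each. No dose, form of boron, fruit age or kind of control treatment is stated in the labels. They do not tie the libraries to fruits or trees either, and p-values therefore measure the spread between these libraries, which may be technical.

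Plant proteases cut proteins in different compartments. Subtilases are serine proteases that are mostly secreted into the cell wall, where they mature peptide signals and wall proteins. Pepsin-type aspartic proteases act in the vacuole and the wall, papain-like cysteine proteases in the vacuole and in vesicles on the way to it, and serine carboxypeptidases remove residues from the C-terminal end of proteins. Clp, Deg and EGY proteases work in the chloroplast. Cystatins bind and block papain-like enzymes. In fruit flesh, proteases take part in turning over stored protein and in remodelling the wall as cells expand and ripen.

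Values are normalized counts, the reads of a gene after the authors' scaling of each library by a size factor. The libraries held 1914312 to 2056668 reads in the listed genes. Log2 fold changes are boron over control from limma on log2(normalized count + 1), with their SE, and p-values are adjusted over all 4291 genes. Of the genes named, 28 followed a rule on size and abundance within each class, and any other was chosen after its values were seen. Where levels are compared between genes they are per kilobase of gene length. In bulk pulp, fewer cells of a type and less RNA per cell cannot be told apart.

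Of the 90 members, 62 were higher and 28 lower in boron fruit, and all 90 passed the limma test with the libraries of the groups apart. This is close to the whole table, in which 99.2% of the genes passed, 73.0% as higher and 26.2% as lower, and 97.7% had groups that did not overlap. The median log2 fold change of the members was 1.61, against 1.62 for all listed genes. The aspartic class and the serine carboxypeptidases had medians near this, 1.57 and 1.60. Of their genes 19 of 24 (79.2%) and 10 of 16 (62.5%) were higher, against 73.0% of all listed genes. Other classes departed from it, with medians of 2.28 for subtilases, -1.16 for papain-like cysteine proteases and -1.29 for organelle proteases. All 19 subtilases were higher, whereas 5 of 7 papain-like cysteine proteases and 8 of 12 organelle proteases were lower. The share of rises varied with abundance, and was 42.8% among all listed genes with a mean of over 1000 normalized counts. Of the 5 inhibitors, 3 were higher and 2 lower.

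The scaling set how many members counted as higher. TMM scaling over the listed genes, which assumes that most genes in the table did not change, lowered the median log2 fold change of all listed genes by 1.40, and 33 members were then higher and 29 lower, against 33.4% and 28.9% of all listed genes. With DESeq2-type size factors 34 were higher and 29 lower (34.6% and 28.3% of all listed genes), and with quantile normalization 39 and 28 (35.6% and 26.7%). All 28 falls passed again as falls under each of these scalings. TMM and DESeq2-type scaling moved fold changes downwards, so a fall could hardly be lost. That outcome is therefore no check on the falls. Under TMM, of the 62 rises, 33 passed again as rises, 1 passed as a fall and 14 had a negative sign. The subtilases had 15 higher and 1 lower gene under TMM scaling, against 10 and 5 in the aspartic class, 5 and 6 among serine carboxypeptidases, 0 and 5 among papain-like proteases and 1 and 8 among organelle proteases.

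**Figure D1:**
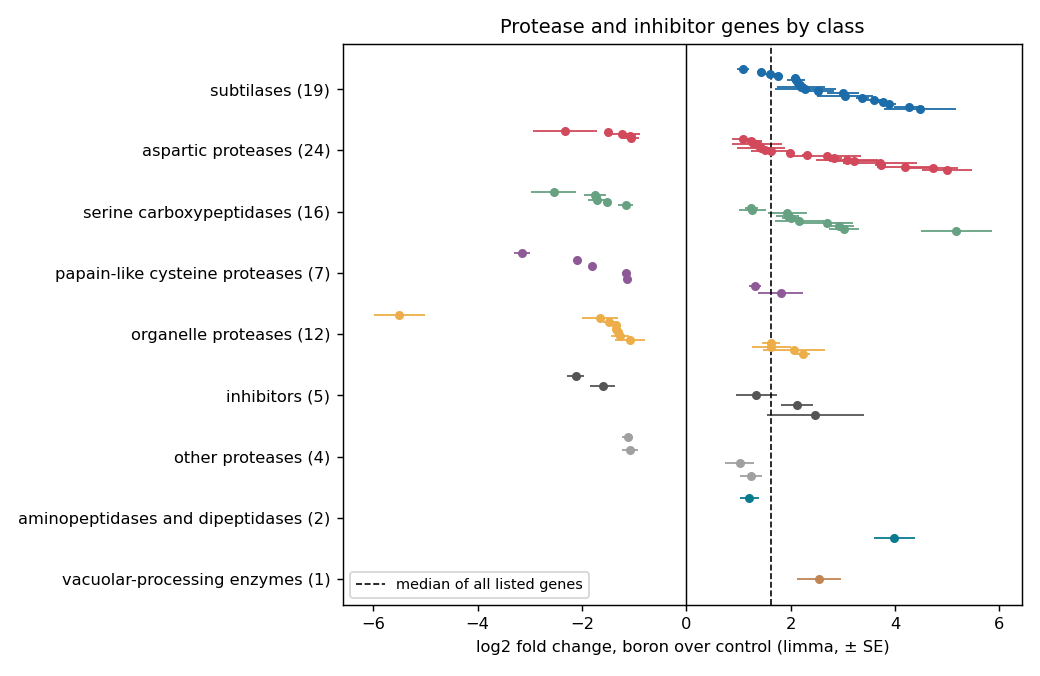
Log2 fold change (boron over control, limma) of each of the 90 members on the horizontal axis, grouped by class, with bars for the SE. The dashed line is the median of all listed genes, 1.62. All 19 subtilases lie to the right of 0, and 5 of 7 papain-like and 8 of 12 organelle proteases lie to its left.

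The summed levels show which enzymes made up the protease transcripts. In control fruit the listed papain-like proteases summed to 34100, 32958 and 32432 normalized counts per kilobase in libraries 1 to 3, which was 57.5% of the sum over all members, and the subtilases to 2342, 2276 and 2307, or 4.0%. In boron fruit the papain-like proteases summed to 13553, 13101 and 13831 and the subtilases to 10916, 11040 and 10342, which was 29.6% and 23.6% of the members' sum. The groups were far apart in both classes. The mean sum per kilobase was 2.46-fold higher in control fruit for papain-like proteases and 4.66-fold higher in boron fruit for subtilases. Aspartic proteases summed to 14470 ± 896 in boron and 9337 ± 452 in control fruit, serine carboxypeptidases to 2827 ± 68.2 and 5562 ± 71.3, and organelle proteases to 2558 ± 85.7 and 5457 ± 95.7 (SD, n = 3). These sums hold listed genes only and follow the authors' scaling.

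**Figure D2:**
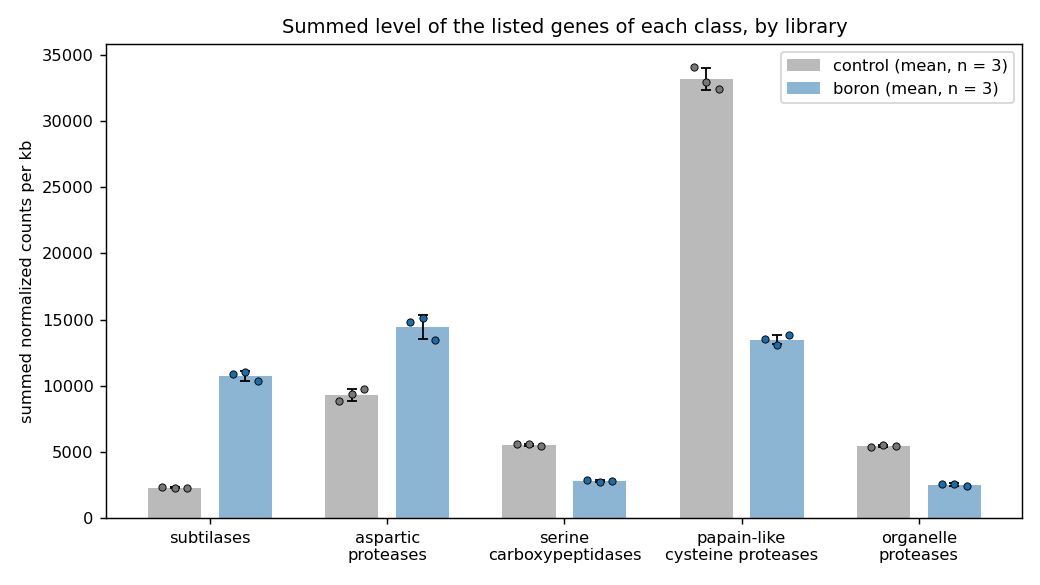
Summed normalized counts per kilobase of the listed genes in the 5 largest classes, with bars for the group mean, error bars for the SD (n = 3) and points for the libraries. The mean subtilase sum was 2308 in control and 10766 in boron fruit, and the mean papain-like sum 33164 and 13495.

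The order of the members changed with this. Of the 10 most abundant members per kilobase in control fruit, 9 were lower and 1 was higher in boron fruit. Of the 10 most abundant in boron fruit, 6 had risen and 4 had fallen, with 5 genes in both sets. Each set was ranked on values that also enter the fold change. Such ranking favours falls in the control set and rises in the boron set. A low-temperature-induced cysteine proteinase-like gene (LOC103945330) ranked first in both groups, with 33.6% of the members' sum per kilobase in control and 19.4% in boron fruit. Behind it in boron fruit came ASPARTIC PROTEASE IN GUARD CELL 1 (LOC103938608), which moved from rank 8 to rank 2, and subtilase SBT1.5 (LOC103948579), which moved from rank 11 to rank 3. Subtilase SBT1.3 (LOC103940273) moved from rank 35 to rank 6. Over the members as over all listed genes, rises were fewer at high abundance. Among members with a mean of over 1000 normalized counts 7 of 16 were higher (43.8%, against 42.8% of all listed genes in that range), and among those between 10 and 100 it was 27 of 31 (87.1%, against 78.5%).

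**Figure D3:**
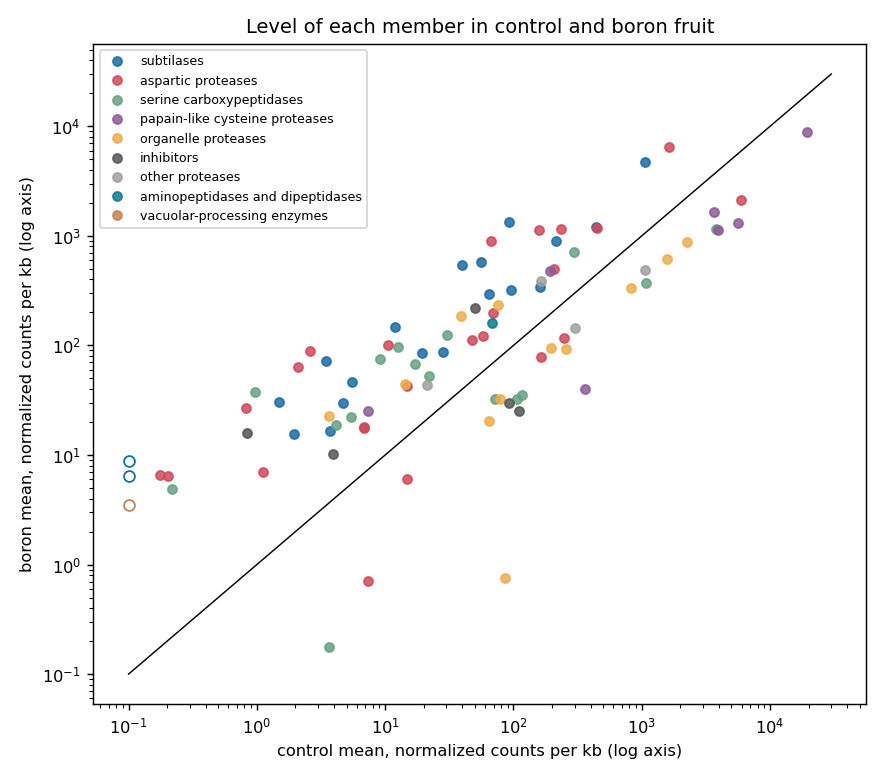
Mean level of each member in control fruit (horizontal) and boron fruit (vertical), in normalized counts per kilobase on log axes, coloured by class, with the line of equal level. Open circles at the left edge are 3 genes with 0 reads in every control library. All subtilases lie above the line, and the most abundant papain-like and Clp genes lie below it.

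Among the subtilases, SBT1.5 (LOC103948579, scaffold NW_008988095.1, 327782 to 330536, plus strand) was the most abundant in both groups. It had 13451, 13237 and 11850 normalized counts in boron libraries 1 to 3 and 2869, 2815 and 3028 in control libraries 1 to 3. Every boron library lay above every control library, and the log2 fold change was 2.14 ± 0.06 (limma, adjusted p = 5.34e-10). This gene held 43.7% of the subtilase sum per kilobase in boron and 46.1% in control fruit, so the class sum leaned on it in both groups alike.

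The rule for named genes also took the largest rises among subtilases with a mean of at least 100 normalized counts in the higher group. SBT5.6 (LOC103943399, scaffold NW_008988039.1, 3948184 to 3955112) had 199, 166 and 219 normalized counts in boron libraries and 9.97, 6.24 and 11.9 in control libraries (log2 fold change 4.27 ± 0.29, limma, adjusted p = 1.94e-07). SBT1.3 (LOC103940273, scaffold NW_008989162.1, 93725 to 96497) had 3698, 3796 and 3646 against 327, 223 and 215 (log2 fold change 3.89 ± 0.14, limma, adjusted p = 2.16e-09). The control values of SBT1.3 were low in all libraries and the boron values lay within a narrow range. In the authors' deposited score, a signal-to-noise value over 42194 genes, SBT5.6 stood at rank 97 from the top, the highest of the 90 members.

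The rises ran through the subtilase subfamilies. The 10 SBT1 genes had log2 fold changes from 1.44 to 3.89 with a median of 2.36, and 9 of them were also higher with TMM scaling. The 3 SBT2 genes ran from 2.11 to 3.04, the 3 SBT3 genes from 1.61 to 4.48 and the 2 SBT5 genes from 1.08 to 4.27. Of the 19 subtilases, 16 had a log2 fold change above the median of all listed genes (1.62), which 2145 of the 4291 listed genes exceeded. Copies of the same type differed in level and size of change, and the following genes were chosen after their values were seen. The other SBT1.3 gene (LOC103935454) rose from 148 ± 16.9 to 1545 ± 233 normalized counts (SD, n = 3). Of a pair of SBT1.8 genes, LOC103929712 rose from 102 ± 13.6 to 1411 ± 46.5 and LOC103950260 from 11.4 ± 0.456 to 71.8 ± 14.3.

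Of 3 SBT1.7 genes, LOC103950894 rose 12.4-fold, from 33.3 ± 3.91 to 413 ± 29.6 normalized counts, LOC103928713 rose 4.57-fold and LOC103945291 3.36-fold. The Arabidopsis SBT1.7 gene is known for its role in seed coat mucilage, a pectin-rich gel. SBT3.5, whose Arabidopsis counterpart processes a pectin methylesterase, had a pear gene (LOC103950202) that rose from 78.7 ± 4.95 to 242 ± 15.8 normalized counts and did not pass with TMM scaling (log2 fold change 0.18, limma, adjusted p = 0.311). The smallest rises depended on the scaling. SBT1.6 (LOC103942088) rose from 1145 ± 91.4 to 3108 ± 295 with the authors' scaling, but with TMM its log2 fold change was -0.00050. SBT5.4 (LOC103959137) rose from 464 ± 67.2 to 979 ± 79.6 and was lower with TMM scaling (log2 fold change -0.35, limma, adjusted p = 0.0242).

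At the low end, SBT2.5 (LOC103940627) had 0 reads in every control library and 3.88, 10.8 and 0.981 normalized counts in boron libraries. Against a floor of 3 reads over the control group it was 5.18-fold higher. With quantile normalization it did not pass (log2 fold change -0.0075, limma, adjusted p = 0.993). The boron libraries differed widely, and without boron replicate 2 its log2 fold change went from 2.28 to 1.64. SBT3.4 (LOC103940325) rose from 4.08 ± 3.53 to 83.1 ± 20.3, with a log2 fold change of 4.48 that was 3.53 without control replicate 3, the library at 0 reads.

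The aspartic class had 24 genes, 19 higher and 5 lower, or 10 higher and 5 lower with TMM scaling. The class was made by words in the description, and it includes a probable isoaspartyl peptidase/L-asparaginase (LOC103950574), which is no pepsin-type enzyme. The most abundant aspartic gene per kilobase in boron fruit was ASPARTIC PROTEASE IN GUARD CELL 1 (LOC103938608, scaffold NW_008988055.1, 737820 to 739549), whose Arabidopsis counterpart is known from drought avoidance. It had 11576, 11718 and 10426 normalized counts in boron libraries against 2680, 2901 and 2914 in control libraries, with the groups far apart (log2 fold change 1.99 ± 0.06, limma, adjusted p = 1.05e-09). The other 3 genes with this description were also higher with the authors' scaling, and 2 of the 4 were higher with TMM.

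The largest rises of the class that the rule named started from near nothing. An At5g10770-like aspartyl protease gene (LOC103953272, scaffold NW_008988041.1, 2605721 to 2611135) had 142, 191 and 123 normalized counts in boron libraries and 5.98, 6.24 and 1.08 in control libraries. Its log2 fold change of 4.99 ± 0.48 (limma, adjusted p = 3.36e-06) was 4.40 without control replicate 3. The gene for AED3 (LOC103961854), an apoplastic protease known in Arabidopsis from systemic immunity, had 118, 90.2 and 104 against 2.99, 6.24 and 1.08 (log2 fold change 4.74 ± 0.47, limma, adjusted p = 3.93e-06).

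AED3-like genes, chosen after their values were seen, were more abundant. LOC103962876 rose from 112 ± 7.58 to 1489 ± 72.4 normalized counts, and LOC103934533 from 235 ± 43.5 to 1673 ± 276. All 3 AED3 genes were also higher with TMM scaling. An aspartyl protease family protein 2-like gene (LOC103929316), chosen in the same way, rose from 421 ± 40.0 to 2082 ± 158.

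The falls in this class included its most abundant gene in control fruit, which held 63.6% of the class sum per kilobase there, against 17.5% for ASPARTIC PROTEASE IN GUARD CELL 1 (LOC103938608). This aspartic proteinase-like gene (LOC103948200, scaffold NW_008988092.1, 764888 to 768974) had 3832, 4114 and 3960 normalized counts in boron libraries and 10632, 11186 and 11774 in control libraries (log2 fold change -1.50 ± 0.06, limma, adjusted p = 3.52e-09). Every control library lay above every boron library. Aspartic proteinase-like protein 2 (LOC103947746) fell from 480 ± 33.8 to 228 ± 3.50. An oryzasin-1-like gene (LOC103944705, named after a vacuolar enzyme of rice seed and picked with its values known) fell from 294 ± 33.6 to 142 ± 20.2.

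Single libraries carried part of some values at low abundance. Aspartyl protease family protein 2 (LOC103947025) had 173, 183 and 133 normalized counts in boron libraries and 1.99, 26.0 and 22.7 in control libraries. Its log2 fold change of 3.71 became 2.69 without control replicate 1. An aspartyl protease family protein 1-like gene (LOC103942515) had 26.9, 8.33 and 4.32 in control libraries and 4 reads in all in boron libraries, and its fall went from -2.32 to -1.66 without control replicate 1. PCS1 (LOC103935634), which overlaps a listed RHC2A ubiquitin ligase gene (LOC103935623) on the same strand, moved from 2.69 to 1.94 without control replicate 1 and to 3.36 without control replicate 2. A sparse ASPARTIC PROTEASE IN GUARD CELL 1-like gene (LOC103929176) had 4.85, 25.2 and 6.87 in boron libraries, and its log2 fold change of 3.08 was 2.43 without boron replicate 2. Calls were lost for Asp1-like genes, a scarce pair with 31.1 ± 7.44 and 31.8 ± 14.4 normalized counts in boron fruit and 12.1 ± 7.66 and 12.2 ± 6.38 in control fruit (LOC103946791 first). LOC103946792 did not pass without boron replicate 1 (limma, adjusted p = 0.0931) or control replicate 1 (0.0584), and LOC103946791 did not pass without boron replicate 2 (0.0525).

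Of the 7 papain-like cysteine proteases 5 fell, among them the 4 most abundant per kilobase. Each of these 4 had a mean of over 1000 normalized counts, a range in which 42.8% of all listed genes were higher. All 5 genes that fell were also lower with TMM scaling, whose downward shift could hardly undo a fall. The low-temperature-induced cysteine proteinase-like gene LOC103945330 (scaffold NW_008988070.1, 1323689 to 1327678), named after a tomato enzyme, had 16448, 16109 and 16586 normalized counts in boron libraries and 36613, 36060 and 34885 in control libraries. The libraries of each group were close to each other, and the log2 fold change was -1.13 ± 0.04 (limma, adjusted p = 2.03e-09). A second gene of this description (LOC103941578) had 2391, 2303 and 2500 against 10883, 9871 and 9950 (log2 fold change -2.09 ± 0.06, limma, adjusted p = 5.34e-10).

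The largest fall of the class was that of probable cysteine protease RD21B (LOC103927791, scaffold NW_008988433.1, 240681 to 243527), of a family that is induced by dehydration in Arabidopsis. It had 80.4, 64.9 and 79.5 normalized counts in boron libraries and 777, 589 and 660 in control libraries (log2 fold change -3.15 ± 0.15, limma, adjusted p = 1.48e-08). The groups were 9.01-fold apart. In the authors' deposited score it stood at rank 69 from the bottom of 42194 genes, the lowest of the members. A COT44-like gene (LOC103957171), named after a Brassica enzyme of germinating seed, fell from 5439 ± 132 to 1560 ± 81.3 and a cathepsin B-like gene (LOC103933562) from 5364 ± 255 to 2406 ± 209, both chosen after their values were seen.

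Both papain-like genes that rose were less abundant per kilobase than the 4 most abundant genes that fell, in control and in boron fruit. The aleurain-like thiol protease gene (LOC103929718), whose barley counterpart is a vacuolar enzyme of the aleurone, had 742, 654 and 606 normalized counts in boron libraries and 278, 249 and 274 in control libraries. It was 2.50-fold higher (log2 fold change 1.31 ± 0.11, limma, adjusted p = 1.16e-06), but -0.12 with TMM scaling and -0.077 with DESeq2-type size factors, where it did not pass. XCP1-like (LOC103932865, chosen after its values were seen), a protease of xylem vessel cells in Arabidopsis, rose from 10.9 ± 6.55 to 37.2 ± 5.02 and did not pass with TMM scaling (adjusted p = 0.396, limma).

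Of 16 serine carboxypeptidases 10 rose and 6 fell, or 5 and 6 with TMM scaling. The most abundant, a serine carboxypeptidase-like gene (LOC103947707, scaffold NW_008988088.1, 514637 to 517445), had 2083, 2168 and 2009 normalized counts in boron libraries and 6928, 7024 and 6745 in control libraries. Its libraries agreed closely within each group, and the log2 fold change was -1.72 ± 0.06 (limma, adjusted p = 1.34e-09). Serine carboxypeptidase-like 31 (LOC103967901) had 72.7, 44.2 and 57.9 against 200.4, 209 and 172. Among falls chosen after their values were seen, serine carboxypeptidase-like 27 (LOC103966636) went from 2675 ± 121 to 927 ± 27.0. Serine carboxypeptidase 24 (LOC103949056), known in Arabidopsis from brassinosteroid signalling, went from 200.3 ± 30.4 to 60.5 ± 6.26. All 6 falls were also falls with TMM scaling, which is no check on them because of its downward shift.

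Serine carboxypeptidase-like 51 (LOC103947737) had 129, 160 and 130 normalized counts in boron libraries and 17.0, 22.9 and 10.8 in control libraries (log2 fold change 3.02 ± 0.29, limma, adjusted p = 3.50e-06). Another gene of that name (LOC103961632) went the other way, from 258 ± 18.1 to 115 ± 14.1. Serine carboxypeptidase-like 45 (LOC103946328) had 174, 154 and 143 against 13.0, 21.9 and 27.0 (log2 fold change 2.93 ± 0.28, limma, adjusted p = 3.30e-06). Of the 4 genes with that name 3 rose and 1 fell, the last (LOC103958270) with 1 read in all boron libraries and 18 in control libraries, a ratio of 19.7 with an exact 95% counting interval of 3.11 to 820.1.

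The largest rise of the class, chosen after its values were seen, was that of serine carboxypeptidase-like 35 (LOC103943217). It had 71.7, 61.3 and 60.8 normalized counts in boron libraries and 4.99, 0 and 0 in control libraries. Its log2 fold change of 5.17 ± 0.68 (limma, adjusted p = 3.47e-05) was 6.03 without control replicate 1, the only control library with reads. Serine carboxypeptidase-like 50 (LOC103931862, chosen after its values were seen), the most abundant gene that rose, went from 464 ± 37.0 to 1114 ± 194, a call that TMM scaling ended (log2 fold change -0.19, limma, adjusted p = 0.242).

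Among organelle proteases, the chloroplast Clp genes fell. Of 6 listed Clp genes 5 were lower and 1 higher, against 26.2% and 73.0% of all listed genes. With TMM scaling, which shifts fold changes downwards, 5 were lower and none passed as higher (28.9% and 33.4% of all listed genes). Clp is the main soluble protease of the chloroplast stroma, and its R subunits sit in the proteolytic core without being active themselves. Clp subunit-related protein 2 (LOC103962376, scaffold NW_008988265.1, 432546 to 435403) had 1019, 1010 and 938 normalized counts in boron libraries and 2489, 2539 and 2490 in control libraries (log2 fold change -1.34 ± 0.07, limma, adjusted p = 2.40e-08). Subunit-related protein 4 (LOC103960311) had 805, 852 and 832 against 2035, 2129 and 2186 (log2 fold change -1.35 ± 0.07, limma, adjusted p = 2.86e-08). These core genes fell 2.53-fold and 2.55-fold, but the factor was not the same for all core genes. Chosen after their values were seen, another subunit-related protein 2 gene (LOC103960794) fell 2.08-fold and a proteolytic subunit 6 gene (LOC103930296) 3.16-fold. The latter was scarce, with 67.3 ± 19.7 normalized counts in control and 21.3 ± 9.25 in boron fruit.

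A further gene, for the accessory subunit CLPT1 (LOC103945812, a gene picked with its values known), fell 2.48-fold, from 1117 ± 65.5 to 450 ± 26.0 normalized counts. The Clp gene that rose encodes the substrate adapter CLPS1 (LOC103929811) and was scarce, with 7.75, 36.1 and 13.7 against 1.99, 4.16 and 3.24.

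Other genes described as chloroplast proteases went both ways. EGY3 (LOC103928060), of a family of chloroplast membrane metalloproteases, had 410, 392 and 407 normalized counts in boron libraries and 76.8, 88.5 and 88.6 in control libraries (log2 fold change 2.24 ± 0.13, limma, adjusted p = 8.31e-08) that stayed positive with TMM scaling (0.81). EGY2 (LOC103942357, a gene picked with its values known) fell from 149 ± 13.6 to 60.8 ± 2.08. Protease Do-like 1 (LOC103963952), the Deg1 protease of the thylakoid lumen, had 391, 313 and 384 against 149, 97.8 and 109, a rise that did not pass with TMM scaling (log2 fold change 0.19, limma, adjusted p = 0.391).

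The class also took in genes by a word in their name that are not chloroplast proteases. LON peptidase N-terminal domain and RING finger protein 1 (LOC103931381), which carries a Lon substrate-binding domain but not the protease, fell from 522 ± 29.2 to 187 ± 15.9 normalized counts. The signal peptidase complex-like protein DTM1 (LOC103962194, chosen after its values were seen), known in rice from the tapetum and meiocytes of the anther, had 96.7, 51.0 and 67.0 in control libraries and 2 reads in all in boron libraries. That is a ratio of 114 with an exact 95% counting interval of 31.1 to 945, and its log2 fold change of -5.50 was the most negative of all members.

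Protease inhibitors were few and scarce. Cysteine proteinase inhibitor 1-like (LOC103943585), a cystatin, had 119, 131 and 216 normalized counts in boron libraries and 51.9, 27.1 and 27.0 in control libraries. The log2 fold change was 2.12 ± 0.31 (limma, adjusted p = 8.21e-05), and with TMM scaling it was 0.71 and did not pass (adjusted p = 0.0843, limma). Cysteine proteinase inhibitor B-like (LOC103962594), another cystatin and chosen after its values were seen, went from 79.5 ± 8.37 to 25.6 ± 2.61. The listed cystatins thus moved in opposite directions.

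The other entries with inhibitor in their name need care. Inter alpha-trypsin inhibitor heavy chain 4 (LOC103929731) fell from 267 ± 15.3 to 60.8 ± 9.03 normalized counts, and in animals the heavy chains themselves do not carry the inhibitor activity. A like gene (LOC103936363) had 6.78, 107 and 4.91 in boron libraries and 1.99, 2.08 and 2.16 in control libraries, so boron replicate 2 decided its mean. Its log2 fold change of 2.47 ± 0.93 (limma, adjusted p = 0.0240) fell to 1.14 without that library, and the call was lost when any one control library was left out (adjusted p 0.0541 to 0.0601, limma). The gene annotated with a peptidase inhibitor I9 domain (LOC103945292), the domain that forms the propeptide of subtilases, had 25.9 ± 0.370 against 9.96 ± 3.03.

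The remaining members were single types. The vacuolar-processing enzyme-like gene (LOC103960369), a legumain-type protease, had 0 reads in every control library and 5.82, 2.70 and 6.87 normalized counts in boron libraries. That is 4.88-fold higher against a floor of 3 reads over the control group. With quantile normalization this gene did not pass (log2 fold change 0.14, limma, adjusted p = 0.795). Methionine aminopeptidase 1B (LOC103929187, chosen after its values were seen), which removes the first methionine of chloroplast proteins, had 14.5, 15.3 and 14.7 against 0 reads. That is 14.3-fold higher against the same floor. A gene with an S33 serine aminopeptidase domain (LOC108865373) had 177, 143 and 170 against 60.8, 79.1 and 71.3, and its log2 fold change of 1.21 turned to -0.22 with TMM scaling.

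Pyrrolidone-carboxylate peptidase-like (LOC103928234), which removes N-terminal pyroglutamate, had 596, 611 and 532 normalized counts in boron libraries against 1108, 1273 and 1415 in control libraries. A gene with a peptidase dimerisation domain (LOC103961686) fell from 473 ± 68.8 to 223 ± 34.4, but an uncharacterised listed gene overlaps it on the other strand. KEX1-like carboxypeptidase (LOC103963738), named after a yeast enzyme, rose from 154 ± 29.8 to 368 ± 99.7, with -0.20 in place of 1.24 under TMM scaling. Metalloendoproteinase 2-MMP (LOC103950918) rose from 29.6 ± 7.55 to 60.7 ± 9.38 and had -0.38 in place of 1.03 under TMM scaling.

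**Figure D4:**
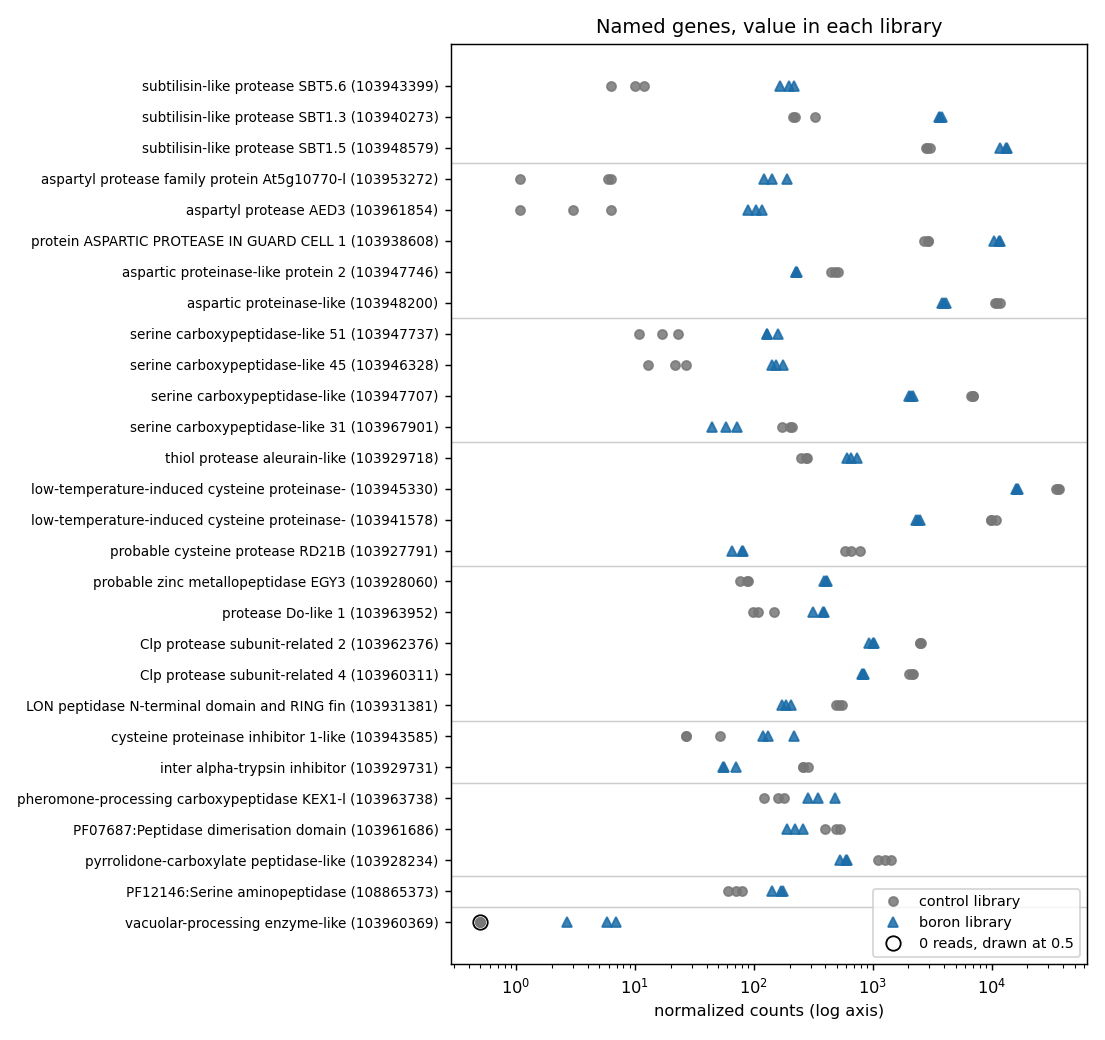
Normalized counts (log axis) of the 28 genes named by rule in each control library (circles) and each boron library (triangles), ordered by class with lines between classes. In all 28, as in all 90 members, the boron libraries lie on one side of the control libraries. The rule required this of the rises and falls it took. The vacuolar-processing enzyme-like gene has 0 reads in the control libraries and is drawn there at 0.5.

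Position on the scaffolds was not used to choose the members. The 90 genes lay on 68 scaffolds of the table, and 10 pairs had a gap of at most 100000 bases. In 9 of these pairs both genes moved the same way, in a table in which 73.0% of all genes were higher. In the 5 pairs of 1 class both genes rose with the authors' scaling, among them At5g10770-like aspartyl protease genes 506 bases apart (LOC103953272 and LOC103953281), Asp1-like genes 3350 bases apart and serine carboxypeptidase-like 42 genes 5350 bases apart. With TMM scaling at least 1 gene of each of these 5 pairs did not pass, and for the Asp1-like and serine carboxypeptidase-like 42 pairs neither gene passed. The I9 domain gene (LOC103945292) starts 9646 bases after SBT1.7 (LOC103945291) on the same strand, and both rose, with log2 fold changes of 1.34 and 1.75. Subtilase SBT1.8 (LOC103929712) lay between the heavy chain 4 gene (LOC103929731), which fell, and the aleurain-like gene (LOC103929718), which rose. Of the members, 28 share their description with another member and may be close copies, so that the counting could have divided reads among them and the value of any 1 copy is uncertain.

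Other genes of protein breakdown, outside the description rule, gave a mixed picture. Of 14 listed genes for metacaspases, serpins, proteasome parts, autophagy and deubiquitinating enzymes, 5 rose, 7 fell and 2 did not pass (1 higher and 8 lower with TMM scaling). Over all listed genes 73.0% were higher and 26.2% lower (33.4% and 28.9% with TMM scaling). Serpin-ZX-like (LOC103955478), of a family of inhibitors that trap papain-like proteases and metacaspases in Arabidopsis, rose from 798 ± 7.45 to 2286 ± 11.2 normalized counts, but had a log2 fold change of only 0.078 with TMM scaling. Metacaspases are cysteine proteases of another fold. Both metacaspase-4-like genes fell, LOC103958114 from 479 ± 38.2 to 102 ± 2.10 and LOC103958111 from 594 ± 118 to 216 ± 41.4, while a scarce metacaspase-1-like gene (LOC103940698) rose from 6.18 ± 2.64 to 45.2 ± 10.4. These genes were chosen after their values were seen.

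Markers of other tissues moved as well, in a table in which 73.0% of all genes were higher. Of 15 listed peel markers 13 rose (10 higher and 2 lower with TMM scaling). Their summed level was 1281 to 1508 normalized counts in control and 3113 to 3502 in boron libraries. Most of this list are GDSL esterase/lipase genes, taken in, like its EPIDERMAL PATTERNING FACTOR-like genes, only by a word in their description. Its only wax gene, annotated with a WAX2 domain (LOC103935723), fell from 34.7 ± 8.14 to 0.646 ± 1.12. All 6 vascular markers rose (4 with TMM scaling), from 144 to 163 up to 583 to 673. Of 6 seed markers 5 rose (3 higher and 1 lower with TMM scaling). The sum of all 6 was 2309 to 2590 in control and 1905 to 2044 in boron libraries. Most of the control sum came from the 1 seed marker that fell, legumin B-like (LOC103946296), from 2235 ± 167 to 931 ± 104 normalized counts. The lower sum in boron fruit therefore reflects this gene and not the list. In control fruit 1 gene of the peel list, EPIDERMAL PATTERNING FACTOR-like protein 1, and 1 vascular marker, fasciclin-like arabinogalactan protein 11, were at 0 reads. No gene of these lists was at 0 in boron fruit. The only gene on the microbial list is a plant gene named after a bacterial homolog. Their part in the protease results was not tested. Since only genes that differ are listed, the labelled pulp could not be checked against markers with a steady level.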

How the data were processed

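Pulp mRNA of 3 boron and 3 control libraries was sequenced, and groups come from the labels. The aligner HISAT2 is the tool named, per the submitters' processing notes, without a version. Counter, strandedness, build and test are not stated there, so scaffolds and descriptions are as deposited, and overlapping or antisense genes cannot be told apart. The deposited library values (signal) are normalized counts, and each library's 4291 values came out as whole reads (tolerance 0.01) once multiplied by 1 size factor (0.926 to 1.11). The authors' deposited log2 fold changes (at least 1.00 in size) and p-values (largest adjusted p-value 0.0499), per the file headers, show that only called genes are listed. The second table that the authors deposited holds 1 signal-to-noise score for each of 42194 genes and was used for ranks only.

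limma 3.58.1 (R 4.3.3; trend, robust) was fitted to log2(normalized count + 1) of all 4291 genes, two-sided, adjusted by Benjamini-Hochberg and called at 0.05. Alternatives were other pseudocounts, filters and scalings, edgeR 4.0.16, DESeq2 1.42.0, a replicate block and leaving out each library. Classes were set by words in the description. The rule for named genes took, per class, the 2 largest rises and 2 largest falls among passing members with groups apart and a mean of at least 100 normalized counts in the higher group, plus the most abundant member per kilobase (28 genes). Members, classes and lists were chosen with earlier results of these data known. Ratios against 1 to 3 reads carry exact 95% intervals, which cover counting error only (SciPy 1.17.1). Ratios against 0 use a floor of 3 reads over the group and leave out the counting error of the higher group. Within groups, log2 values correlated at 0.965 to 0.972 across genes, and no pair of libraries agreed within sampling noise. No sequence is shown.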

Additional observations from a re-analysis of the deposited data

How the results depend on the processing

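The counts of members higher (62) and lower (28) in boron fruit were 62 and 28 with edgeR and with DESeq2 on the recovered reads, with a pseudocount of 0.5 and with the replicate block. Replicate numbers did not pair the libraries (correlations of same-numbered deviations -0.0389 to 0.0256), and the block changed no call of a member. Leaving out 1 library gave 60 to 62 higher and 28 lower. Higher members numbered 29 with a mean of at least 100 normalized counts (51 members tested), 33 with TMM, 34 with DESeq2-type size factors and 39 with quantile normalization.

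By class, in that order of the 4 settings, higher genes numbered 9, 10, 10 and 11 in the aspartic class, 0, 0, 0 and 1 among inhibitors, 2, 1, 1 and 2 among organelle proteases, 1, 0, 0 and 1 among papain-like proteases, and 2, 5, 6 and 6 among serine carboxypeptidases. With the filter, 3 aspartic genes and 1 inhibitor were lower. With TMM and DESeq2-type scaling 1 subtilase was lower. Scaling over a table of selected genes is drawn to the middle of those genes by construction. Signs turned in 14 of the 62 rises with TMM and in 10 with DESeq2-type scaling, among them 3 of the 28 genes named by rule: LOC108865373 (-0.22 with TMM, -0.18 with DESeq2-type scaling), LOC103963738 (-0.20, -0.15) and LOC103929718 (-0.12, -0.077). Members under about 10 reads per library were limited by depth.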
